A study of Mus musculus with 15 samples.

Results

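The mitochondrial solute carriers of the SLC25 family were followed in cardiomyocytes of mice that had been exposed to protons. The members were all genes whose symbol in the annotation of the array starts with Slc25a, with the uncoupling proteins Ucp2 and Ucp3 of the same family. They numbered 47 of the 19937 genes with a probe set of a single symbol: 46 Slc25a genes and Ucp3. Ucp2 was not analysed here. Where a gene had several such probe sets, the one with the highest mean over the 15 arrays stood for it.

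SLC25 proteins sit mainly in the inner mitochondrial membrane, which is otherwise closed to charged metabolites, and exchange or co-transport solutes between the cytosol and the matrix. In heart muscle they carry ADP in and ATP out, bring in the phosphate for ATP synthase, move acylcarnitines towards oxidation and pass reducing equivalents inward through the malate-aspartate shuttle. Other members supply cofactors, nucleotides, amino acids and iron to the matrix, and the uncoupling proteins form a branch of their own.

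All animals were male C57Bl/6NT mice aged 8 to 9 months. They received whole-body 1 GeV protons at 0.9 Gy (0.17 Gy/min) or a sham procedure, and cardiomyocytes of the left ventricle were isolated by collagenase digestion followed by stepwise return of calcium. Each array was one Affymetrix Mouse Gene 1.0 ST hybridisation: 2 arrays of proton day 1, 3 of day 3, 3 of day 5, 2 of day 12, 2 of day 26, 2 of sham day 1 and 1 of sham day 3. Days are those in the sample titles; the design text lists 1, 3, 7, 14 and 28 instead. Days 5, 12 and 26 had no sham of their own, so the 3 sham samples served as the control of every day, and the 5 day comparisons share them. The labels do not say whether arrays are separate mice, so p-values measure only the spread between these samples, which may be technical. They also allow for a small number of endothelial and inflammatory cells in the isolate.

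Replicates 1 and 2 of day 5 differed less than any other of the 105 pairs of arrays: the SD of their differences over the 12102 genes tested was 0.0768 on the log2 scale, against 0.222 to 0.527 for the others. They may be 1 library with 2 deposits and were averaged as 1 sample, which left 14 samples. In every list of samples below, the first day 5 value is that average. Median array signals lay between 4.90 and 5.16 on the log2 scale. All 15 cardiomyocyte markers passed the signal filter, with signals from 6.43 to 12.7, and their mean per sample stayed within -0.07 to 0.03 of the sham mean. Markers of other cells were also measured. At day 26 the 7 of 13 lymphocyte genes above the filter averaged 1.27 and 1.38 above sham. The 5 of 8 adipocyte genes averaged 0.62 and 1.16 above it, and the 3 of 4 atrial genes 0.82 and 2.28. The lymphocyte genes also averaged 1.15 and 0.82 above sham at day 5 and 1.37 in day 12 replicate 2. Over the proton samples, endothelial genes ran from -0.52 to 0.78, fibroblast genes from -0.40 to 1.04 and macrophage genes from -0.64 to 0.95. In the sham samples these ran from -0.14 to 0.22, -0.16 to 0.20 and -0.27 to 0.16. The 6 mesothelial genes ran from -0.63 to 1.79 over the proton samples and from -0.63 to 0.57 in sham. For the 5 of 6 smooth muscle and pericyte genes above the filter, the ranges were -0.23 to 0.74 and -0.22 to 0.24. In a bulk sample, fewer cells of a type and less RNA per cell cannot be told apart.

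A gene was tested when its mean log2 signal exceeded 5.00, the median of all probe sets, and 38 of the 47 members passed. The 9 below it were Slc25a14, Slc25a18, Slc25a2, Slc25a21, Slc25a31, Slc25a41, Slc25a48, Slc25a53 and Slc25a54. Slc25a48 (4.98) and Slc25a2 (4.99) lay just below it, and Slc25a24 (5.13) and Slc25a29 (5.26) just above. Among those below were the germ-cell ADP/ATP carrier Slc25a31 and the oxodicarboxylate carrier Slc25a21. Mean signals of the 47 ran from 2.83 for Slc25a54 to 11.97 for Slc25a4. Such levels depend on each probe set's own response and were not set against each other.

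**Figure D1:**
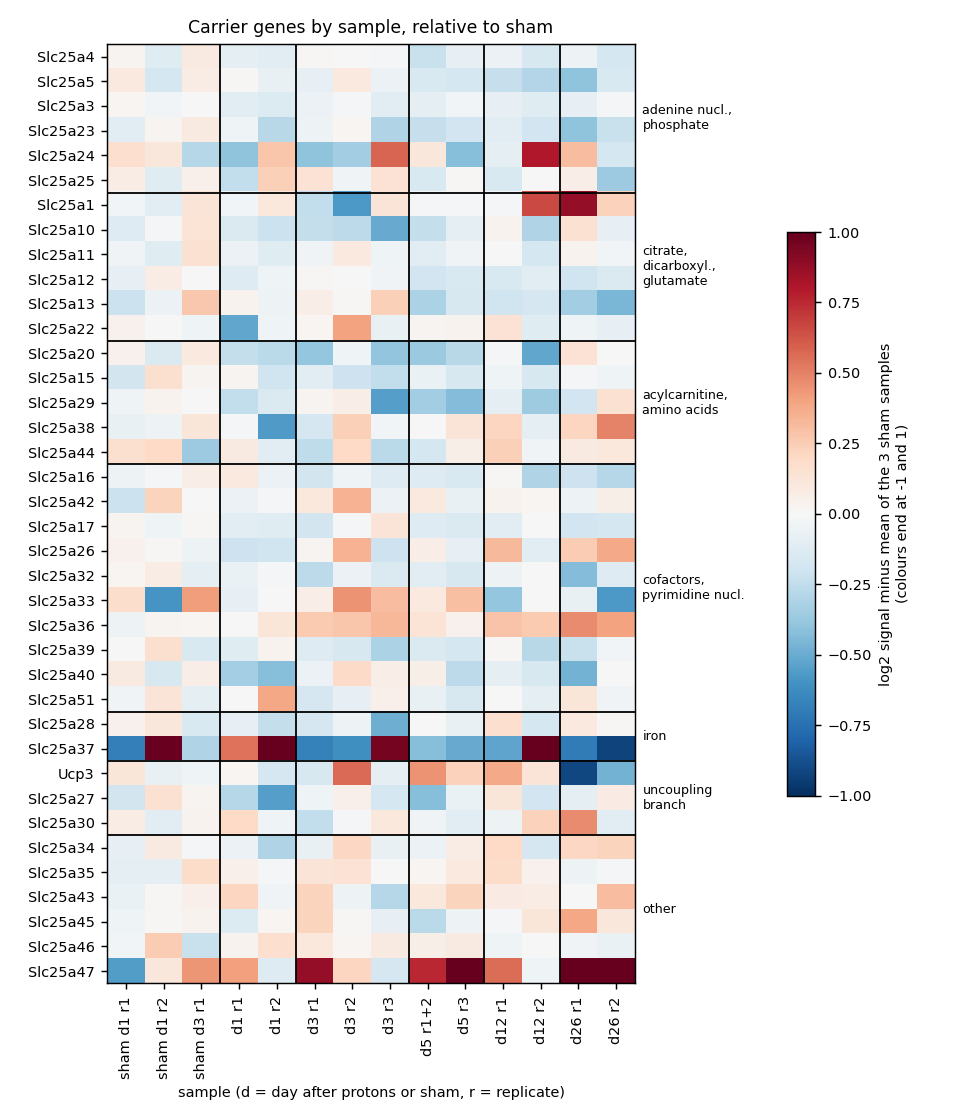
Log2 difference of each of the 38 tested members (rows, grouped by transported substrate) from its sham mean in each of the 14 samples (columns, grouped by day). Colour gives the difference on the log2 scale and is capped at the ends of the scale; most cells are pale, and Slc25a37, Slc25a47 and Ucp3 carry the strongest colours.

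No carrier passed the test on any day. With limma's moderated test and Benjamini-Hochberg adjustment over all 12102 genes, 0 of the 38 members had an adjusted p under 0.05 on any day; of all genes, 0% did on day 1, 0.00826% on day 3, 0.0496% on day 5, 0% on day 12 and 0.0413% on day 26. The mean of the 5 proton days against sham also called 0 members (0.0248% of all genes), as did the mean of days 12 and 26 against that of days 1 and 3 (0.00826%). An F-test of the 5 proton days together against sham called 0 members (0.0248% of all genes), and one of the differences between proton days called 0 (0%).

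At an unadjusted p under 0.05, the count was 3 of 38 members on day 1 (5.5% of all genes), 2 on day 3 (8.86%), 4 on day 5 (8.99%), 4 on day 12 (8.01%) and 10 on day 26 (14.3%). For the proton mean they were 5 (12%), for late against early days 7 (13.2%), for any day against sham 6 (9.54%) and for differences among days 5 (8.43%). The day 26 members were Slc25a1, Slc25a36 and Slc25a47 with higher signals than sham (8.6% of all genes were so) and Slc25a12, Slc25a13, Slc25a16, Slc25a23, Slc25a32, Slc25a5 and Ucp3 with lower ones (5.67%).

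Taking days 1, 3, 5, 12 and 26 in turn, the median difference of the members from sham was -0.06, -0.02, -0.09, -0.03 and -0.02. Over all genes tested it was -0.01, 0.00, 0.01, 0.01 and 0.05. In the same order, 28, 22, 27, 22 and 21 of the 38 members had a difference below 0, and so had 51.7%, 49%, 48.8%, 48.1% and 41.2% of all genes. These splits depend on the scaling of the arrays. With array medians made equal, the median of all genes at day 26 went from 0.05 to -0.05 and 29 of 38 members lay below 0; at day 1 the members below 0 went from 28 to 19.

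The members whose day-to-day pattern had the smallest p over all proton days against sham were Slc25a36, Ucp3 and Slc25a13. For Slc25a36 and Ucp3 the 250 bases before the start site are shown, as the sequence beside which their transcription starts. They come from RefSeq on GRCm38.p6: chr9:97111042-97111291 (minus strand) and chr7:100472741-100472990 (plus strand). The Slc25a36 signals are not tied to this position, as set out below. Capitals mark matches, on either strand, to CACGTG (the E-box bound by MYC and USF factors), TGACGTCA (the cyclic AMP response element) or CCAAT (the CCAAT box).
Slc25a36: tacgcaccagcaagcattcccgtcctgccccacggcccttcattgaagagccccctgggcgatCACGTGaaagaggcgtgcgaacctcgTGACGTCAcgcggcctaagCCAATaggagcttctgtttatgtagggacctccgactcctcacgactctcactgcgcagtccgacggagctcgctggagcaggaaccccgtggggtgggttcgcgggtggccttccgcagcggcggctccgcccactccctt
Ucp3: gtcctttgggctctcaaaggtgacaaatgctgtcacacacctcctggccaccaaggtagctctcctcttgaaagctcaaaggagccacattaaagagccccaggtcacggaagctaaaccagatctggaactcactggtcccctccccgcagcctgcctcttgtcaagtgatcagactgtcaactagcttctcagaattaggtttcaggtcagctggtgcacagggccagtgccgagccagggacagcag
In Slc25a36 the E-box began 187, the cyclic AMP response element 161 and the CCAAT box 142 bases before the start. The Ucp3 stretch held none of these. GC content was 64.4% with 24 CpG pairs in Slc25a36 and 54.8% with 3 in Ucp3. For Slc25a13 the table gives a start inside the gene span, so that 131 of the 250 bases before it lie within the gene. An E-box began 125 and a CCAAT box 22 bases before that start, both within the span, and the stretch is not printed.

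Across the family, 37 of 47 members had an entry, in 47 windows of 300 bases (250 before and 50 after a start), among 32851 windows of all genes. CACGTG stood in 17% of the member windows and 7.15% of all windows, in 7 genes (Slc25a1, Slc25a13, Slc25a14, Slc25a15, Slc25a31, Slc25a33 and Slc25a36). TGACGTCA stood in 4.26% against 1.79% (Slc25a25 and Slc25a36), and CCAAT in 46.8% against 37.4%. Median GC content was 59% in the members and 52.7% in all windows; the part of base composition in these shares was not tested. CCGGAAGT, the GABPA motif, was in 2.13% against 3.89% (Slc25a20), and AAGATGGC, the YY1 motif, in 2.13% against 2.75% (Slc25a3). TCAAGGTCA, the ERR motif, was in 0% of the member windows and 0.423% of all. No 2 matches overlapped. A match is a run of letters and not a shown binding site.

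The carriers of adenine nucleotides and phosphate, which supply ATP synthase and export its product, showed small differences that were mostly below sham. Of 9 members 6 were tested. All 6 lay below sham at day 1 (median -0.08) and at day 5 (median -0.15), and 5 of 6 at days 3, 12 and 26, where medians were -0.04, -0.11 and -0.13; at day 1 Slc25a5 and Slc25a25 turned above 0 with array medians made equal or quantile normalization, as did Slc25a4 and Slc25a5 at day 3 with the latter.

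Slc25a4 (chr8:46207168-46211062) is the ADP/ATP carrier of heart and skeletal muscle. Its log2 signals were 12.08, 11.93 and 12.14 in the sham samples, 11.96 and 11.94 at day 1, 12.06, 12.05 and 12.04 at day 3, 11.83 and 11.97 at day 5, 11.99 and 11.89 at day 12, and 12.00 and 11.87 at day 26. The sham range thus overlapped that of every proton day. Its day 5 difference of -0.15 ± 0.07 (SE) had a limma adjusted p of 0.546.

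Slc25a5 (chrX:36795597-36798808), the ADP/ATP carrier of many tissues, gave 11.78, 11.50 and 11.75 in sham and 11.69 and 11.60 at day 1. It gave 11.59, 11.77 and 11.62 at day 3, 11.52 and 11.50 at day 5, 11.45 and 11.38 at day 12, and 11.28 and 11.53 at day 26. Both day 12 samples were below all sham samples, while at day 26 one sample reached into the sham range. The differences were -0.26 ± 0.09 at day 12 (adjusted p = 0.609) and -0.28 ± 0.09 at day 26 (adjusted p = 0.24), the latter being -0.15 without day 26 replicate 1, and late days were 0.25 ± 0.07 below early ones (adjusted p = 0.206). The other probe sets annotated to Slc25a5 gave -0.22 and -0.35 at day 12 and -0.23 and -0.71 at day 26. Probe set numbers of the members mostly follow their chromosomes, in the order 10 to 19, 2 to 9 and X. By number, the Slc25a5 probe set used falls between members on chromosomes 5 and 6. The one with -0.22 and -0.23 falls beside Slc25a43, the neighbour of Slc25a5 on chromosome X. Which copy of this gene each measures is not known, since it has near-identical copies in the genome. The signals above are thus not tied to the position given.

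Slc25a3 (chr10:91116574-91124046) is the phosphate carrier. It gave 11.85, 11.80 and 11.84 in sham, 11.72 and 11.69 at day 1, 11.77, 11.82 and 11.72 at day 3, 11.74 and 11.80 at day 5, 11.75 and 11.71 at day 12, and 11.74 and 11.81 at day 26. All samples of days 1, 5 and 12 were below every sham sample, though the nearest day 5 and sham values both round to 11.80. The differences were -0.12 ± 0.05 at day 1 (adjusted p = 0.754) and -0.10 ± 0.05 at day 12 (adjusted p = 0.616). They depended on scaling: day 1 gave -0.066 with array medians made equal and day 12 gave -0.060 with quantile normalization.

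The calcium-regulated ATP-Mg/phosphate carriers Slc25a23, Slc25a24 and Slc25a25 alter the pool of adenine nucleotides in the matrix. Slc25a24 gave 5.27, 5.22 and 4.83 in sham, 4.71 and 5.39 at day 1, 4.70, 4.76 and 5.69 at day 3, 5.22 and 4.68 at day 5, 5.02 and 5.91 at day 12, and 5.41 and 4.94 at day 26. Its values were scattered around the filter, with the highest in replicate 2 of day 12. The day 12 difference of 0.36 ± 0.36 (adjusted p = 0.751) was -0.089 without that sample. Slc25a23 was 0.31 ± 0.12 below sham at day 26 (adjusted p = 0.285; the difference was -0.20 with a covariate for other cells, the mean score of endothelial, fibroblast and macrophage genes), and Slc25a25 stayed within 0.15 of sham on all days.

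Of the carriers of citrate, dicarboxylates and glutamate, which include the malate-aspartate shuttle, 6 of 8 members were tested. Slc25a13 and Slc25a12 exchange aspartate for glutamate, the step that drives the shuttle. Slc25a13 (citrin, chr6:6041218-6217304) gave 8.99, 9.14 and 9.47 in sham, 9.23 and 9.14 at day 1, 9.27, 9.21 and 9.43 at day 3, 8.88 and 9.04 at day 5, 9.00 and 9.03 at day 12, and 8.85 and 8.74 at day 26. Only the day 26 samples lay below all sham samples. They were 0.40 ± 0.12 lower (adjusted p = 0.2), and the late days lay 0.34 ± 0.09 below the early ones (adjusted p = 0.194). With the covariate for other cells, the latter was -0.36 and passed the test (adjusted p = 0.0474).

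Slc25a12 (aralar, chr2:71274270-71367781) gave 10.46, 10.61 and 10.54 in sham, 10.41 and 10.49 at day 1, 10.55, 10.54 and 10.50 at day 3, 10.35 and 10.39 at day 5, 10.38 and 10.42 at day 12, and 10.34 and 10.39 at day 26. At days 5, 12 and 26 all samples were below all sham samples. The differences were -0.17 ± 0.06 at day 5 (adjusted p = 0.474) and -0.17 ± 0.06 at day 26 (adjusted p = 0.252), and the proton mean was -0.11 ± 0.04 (adjusted p = 0.366). With array medians made equal the day 26 difference was -0.28; the proton mean was -0.07 with quantile normalization or without sham day 1 replicate 2.

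The oxoglutarate/malate carrier Slc25a11 (chr11:70644019-70647531), the other carrier of the shuttle, gave 11.36, 11.27 and 11.54 in sham, 11.33 and 11.27 at day 1, 11.35, 11.49 and 11.34 at day 3, 11.28 and 11.36 at day 5, 11.39 and 11.22 at day 12, and 11.43 and 11.36 at day 26. Its groups overlapped sham throughout, and no day differed by more than 0.09. The dicarboxylate carrier Slc25a10 (chr11:120491837-120501161) gave 6.94, 7.05 and 7.20 in sham, 6.92 and 6.85 at day 1, 6.83, 6.80 and 6.56 at day 3, 6.83 and 6.97 at day 5, 7.10 and 6.76 at day 12, and 7.22 and 6.98 at day 26. It was below all sham samples at days 1 and 3, by 0.33 ± 0.12 at day 3 (adjusted p = 0.451), and overlapped them later on. The citrate carrier Slc25a1 exports citrate for lipid synthesis; its day 26 values of 7.88 and 7.24 lay above the sham values of 6.98, 6.90 and 7.14, by 0.55 ± 0.24 (adjusted p = 0.316). The difference was 0.23 without day 26 replicate 1, 0.88 without replicate 2 and 0.27 with the covariate for other cells. The glutamate carrier Slc25a22 had differences from -0.28 at day 1 to 0.12 at day 3.

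**Figure D2:**
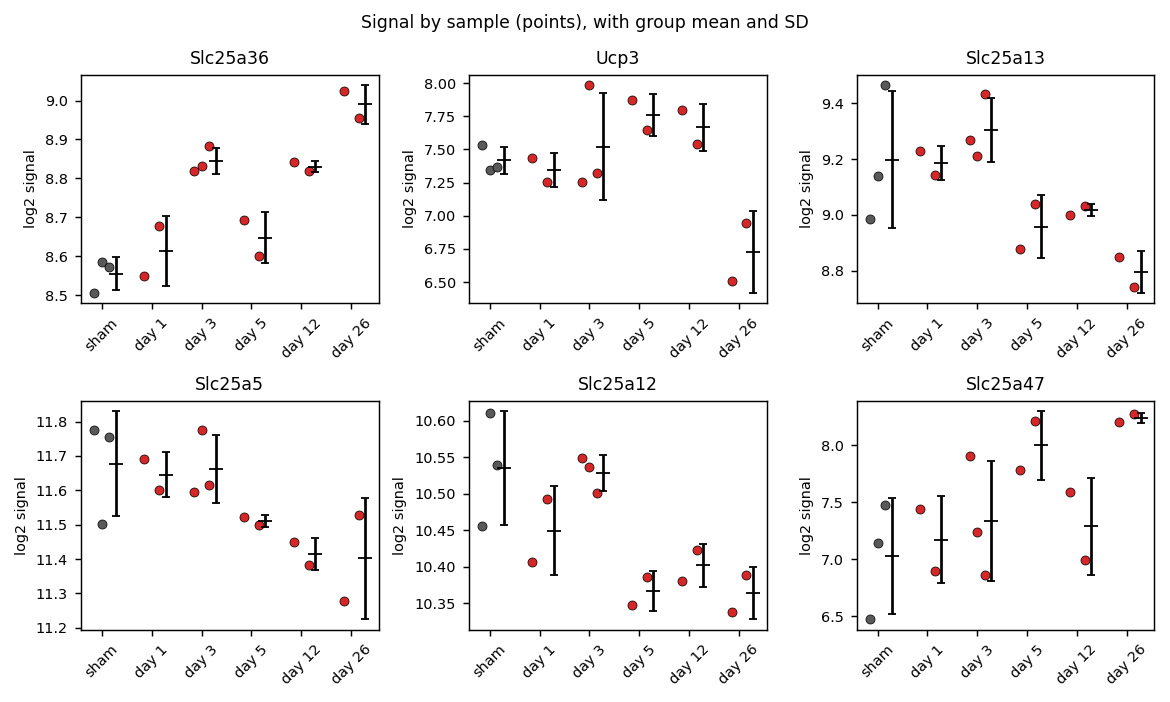
Log2 signal (vertical axis) of selected carriers by group (horizontal axis: sham and proton days 1 to 26), with a point for each of the 14 samples and a bar for each group mean. Slc25a36 and Slc25a47 lie above all sham samples at day 26, while Ucp3 (6.51 and 6.95) and Slc25a13 (8.85 and 8.74) lie below them.

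Among the carriers of acylcarnitines and amino acids, 5 of 6 were tested. Slc25a20 (chr9:108662136-108684642) brings acylcarnitines into the matrix for fatty acid oxidation. It gave 9.66, 9.47 and 9.72 in sham, 9.38 and 9.35 at day 1, 9.23, 9.57 and 9.22 at day 3, 9.25 and 9.34 at day 5, 9.60 and 9.10 at day 12, and 9.76 and 9.62 at day 26. The samples of days 1 and 5 were below all sham samples, and those of day 26 were back in or above their range. Differences were -0.28 ± 0.13 at day 3 (adjusted p = 0.564), -0.32 ± 0.14 at day 5 (adjusted p = 0.546) and -0.27 ± 0.14 at day 12 (adjusted p = 0.624), against 0.08 ± 0.14 at day 26 (adjusted p = 0.821), which became -0.029 with array medians made equal. The day 12 value rested on replicate 2: it was -0.021 without that sample and -0.52 without replicate 1, and -0.15 with the covariate for other cells. Slc25a38, which imports glycine for haem synthesis, was 0.36 ± 0.17 above sham at day 26 (adjusted p = 0.368), with 8.04 and 8.32 against 7.75, 7.77 and 7.95 in sham; without day 26 replicate 2 this was 0.22. All 5 genes of the group had higher means late than early, by a median of 0.15, where 56.8% of all genes did. Slc25a15 and Slc25a29 turned below 0 with array medians made equal. Against sham, Slc25a29 was at -0.39 on day 5 and -0.02 on day 26. Its samples of days 1, 5 and 12 lay below all sham samples, but its unadjusted limma p was not under 0.05 on any day. Slc25a15 stayed between -0.19 and -0.03 of sham, and Slc25a44 between -0.11 and 0.10.

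All 10 carriers of cofactors and pyrimidine nucleotides were tested. Slc25a36 (chr9:97075281-97111041), which carries pyrimidine nucleotides for mitochondrial DNA and RNA synthesis, came nearest to the threshold of all members. It gave 8.51, 8.59 and 8.57 in sham, 8.55 and 8.68 at day 1, 8.82, 8.83 and 8.88 at day 3, 8.69 and 8.60 at day 5, 8.84 and 8.82 at day 12, and 9.03 and 8.95 at day 26. Every sample of days 3, 5, 12 and 26 was above every sham sample.

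The Slc25a36 difference from sham was 0.29 ± 0.07 at day 3 (adjusted p = 0.265), 0.28 ± 0.08 at day 12 (adjusted p = 0.54) and 0.43 ± 0.08 at day 26, with a 95% interval of 0.27 to 0.60 and a fold of 1.35. The day 26 adjusted p was 0.0528, just short of the threshold. It fell under the threshold with quantile normalization (0.0411), a signal filter at the 75th percentile (0.0342), a robust prior (0.0487) or array weights (0.014). With the 15 arrays kept separate it was 0.024, but this counts the near-identical day 5 replicates 1 and 2 as 2 samples. It fell under the threshold with the covariate for other cells (0.0277), where the difference was 0.41. It also did so without proton day 3 replicate 3 (0.0483), day 12 replicate 1 (0.0491) or day 12 replicate 2 (0.0479). It stayed above the threshold in the other alternatives. Among these were array medians made equal (0.245, with a difference of 0.33) and the mean of the gene's probe sets (0.146, with a difference of 0.32). Without day 26 replicate 1 the difference was 0.40. A second probe set annotated to Slc25a36 gave smaller differences, 0.15 at day 3, 0.19 at day 12 and 0.20 at day 26, and -0.02 and -0.07 at days 1 and 5. By number, the Slc25a36 probe set used falls between those of members on chromosomes 19 and 2. The second falls between those of members on chromosomes 9 and X. Which locus each of these probe sets measures is not known, so neither is tied to the position given for the gene.

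**Figure D3:**
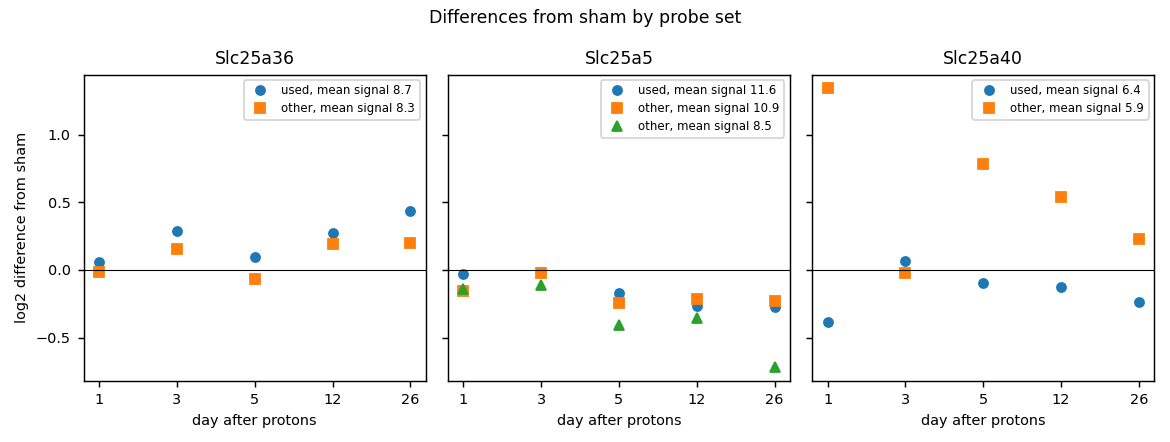
Log2 difference from sham (vertical axis) by proton day (horizontal axis) for each probe set annotated to Slc25a36, Slc25a5 or Slc25a40, one kind of symbol per probe set. The probe sets of Slc25a36 and of Slc25a5 have the same sign at day 26, whereas those of Slc25a40 have opposite signs at day 1 (-0.38 and 1.34).

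Slc25a40, a relative of the glutathione importer Slc25a39, gave 6.55, 6.30 and 6.53 in sham, 6.12 and 6.04 at day 1, 6.40, 6.65 and 6.53 at day 3, 6.52 and 6.20 at day 5, 6.37 and 6.30 at day 12, and 5.99 and 6.46 at day 26. Both day 1 samples were below sham, by 0.38 ± 0.16 (adjusted p = 0.754). The second probe set annotated to Slc25a40 was 1.34 above sham on that day. By number, the Slc25a40 probe set used falls after those of members on chromosome 4 and before those on chromosome 6, and the gene lies on chromosome 5. The second falls between those of members on chromosomes 9 and X. It is not known which locus each measures, so the opposite signs may come from different loci and the direction for Slc25a40 is unsettled. Slc25a39 itself stayed within 0.20 of sham. Of the others, the coenzyme A-linked Slc25a16 was 0.25 ± 0.10 below sham at day 26 (adjusted p = 0.305), as was the folate and FAD carrier Slc25a32 by 0.28 ± 0.12 (adjusted p = 0.307). Slc25a32 gave 5.97 and 6.28 at day 26 and 6.42, 6.48 and 6.31 in sham, and its difference was -0.13 without day 26 replicate 1. The S-adenosylmethionine carrier Slc25a26 was 0.32 ± 0.16 above it (adjusted p = 0.382; 0.49 with that covariate), and the NAD carrier Slc25a51 was at most 0.20 away on any day. Slc25a33 had differences from 0.27 at day 3 to -0.33 at day 26, with sham values of 6.38, 5.62 and 6.63. Slc25a17 stayed between -0.18 and -0.03 of sham, and its samples of days 1, 5 and 26 lay below all sham samples. Slc25a42 stayed between -0.04 and 0.13.

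Both iron carriers were tested. Slc25a37 (mitoferrin-1, chr14:69241848-69285544) feeds iron to haem synthesis in red cell precursors. It gave 6.60, 8.27 and 6.98 in sham, 7.83 and 9.39 at day 1, 6.61, 6.67 and 8.25 at day 3, 6.86 and 6.78 at day 5, 6.76 and 8.30 at day 12, and 6.59 and 6.36 at day 26. It was high in both day 1 samples and in 1 sample each of day 3, day 12 and sham. The day 1 difference was 1.32 ± 0.63 (adjusted p = 0.754) and the day 26 difference -0.81 ± 0.63 (adjusted p = 0.554); without sham day 1 replicate 2 the latter was -0.32, and without proton day 1 replicate 2 the former was 0.54. With the score of other cells as a covariate, the day 26 difference was -1.61 and passed the test (adjusted p = 0.0487), while that of day 1 was 0.50. That score holds no erythroid genes. The day 5 difference of -0.46 ± 0.63 (adjusted p = 0.862) became 0.031 without that sham sample.

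Erythroid markers were high in the same samples as Slc25a37. Of 12 listed, 3 passed the filter, and their mean stood 2.25 above the sham mean in day 1 replicate 2, 0.61 in day 1 replicate 1, 0.78 in day 3 replicate 3, 0.84 in day 12 replicate 2 and 1.04 in sham day 1 replicate 2. In the remaining samples it was between -1.90 and -0.39, with -1.30 and -1.90 at day 26. Of 10 neutrophil markers, 4 passed the filter, and their mean stood 0.98 and 2.29 above sham at day 1. It also stood 1.04 above in day 3 replicate 3, 1.15 in day 12 replicate 2 and 0.69 in sham day 1 replicate 2. The other samples had neutrophil means between -0.38 and 0.46. The part of blood cells in the Slc25a37 values was not tested. Slc25a28, the mitoferrin of many tissues, stayed between -0.24 and 0.06 of sham.

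**Figure D4:**
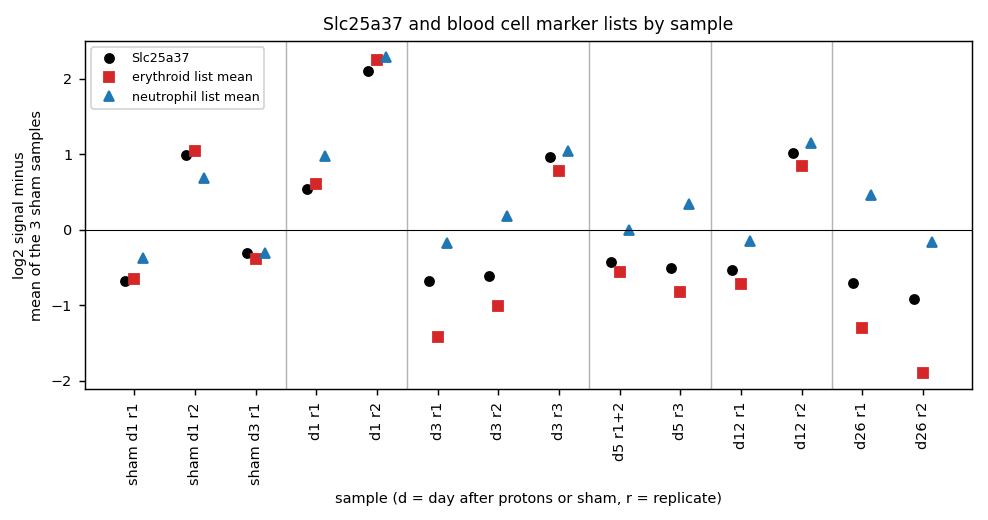
Log2 difference from the sham mean (vertical axis) in each of the 14 samples (horizontal axis, grouped by day). Symbols of different colours give Slc25a37, the mean of the erythroid markers and the mean of the neutrophil markers. The samples high in Slc25a37 are those high in the erythroid markers, and day 1 replicate 2 is the highest sample of each series.

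Of the uncoupling branch, 3 of 4 members were tested. Ucp3 (chr7:100472991-100486432), the uncoupling protein of muscle, gave 7.54, 7.35 and 7.37 in sham, 7.43 and 7.25 at day 1, 7.26, 7.99 and 7.32 at day 3, 7.87 and 7.65 at day 5, 7.79 and 7.54 at day 12, and 6.51 and 6.95 at day 26. Its samples lay above all sham samples at days 5 and 12 and below them at day 26. The nearest day 12 and sham values both round to 7.54. The difference was 0.34 ± 0.20 at day 5 (adjusted p = 0.673) and -0.69 ± 0.20 at day 26 (adjusted p = 0.194), a fold of 0.62; the test for any difference among the proton days gave an adjusted p of 0.373. Without day 26 replicate 1 the day 26 difference was -0.47. Slc25a27 gave 5.53, 5.87 and 5.73 in sham, 5.43 and 5.16 at day 1, 5.66, 5.76 and 5.54 at day 3, 5.29 and 5.64 at day 5, 5.83 and 5.52 at day 12, and 5.61 and 5.79 at day 26. Its day 1 samples were below all sham samples by 0.42 ± 0.17 (adjusted p = 0.754). Slc25a30 stayed within 0.19 of sham.

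The last 8 members have other roles or no substrate assigned here, and 6 were tested. Slc25a47, known as a carrier of liver, had the largest positive difference of the members at day 26. It gave 6.47, 7.14 and 7.47 in sham, 7.44 and 6.90 at day 1, 7.91, 7.24 and 6.86 at day 3, 7.79 and 8.21 at day 5, 7.59 and 6.99 at day 12, and 8.21 and 8.27 at day 26. All samples of days 5 and 26 were above sham, by 0.97 ± 0.33 (adjusted p = 0.452) and by 1.21 ± 0.33, a fold of 2.32 (adjusted p = 0.166). At day 3 the difference was 0.31 ± 0.30 (adjusted p = 0.788), 0.023 without day 3 replicate 1, 0.03 without sham day 1 replicate 1 and -0.14 against the sham of that day alone. Without sham day 1 replicate 1 the proton mean was 0.30 in place of 0.58. It was called at day 26 with array weights (adjusted p = 0.036) and with the score of other cells as a covariate (adjusted p = 0.0228). Slc25a46, an outer membrane protein of mitochondrial dynamics, stayed within 0.10 of sham. Slc25a34, Slc25a35, Slc25a43 and Slc25a45 had differences between -0.18 and 0.25.

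**Figure D5:**
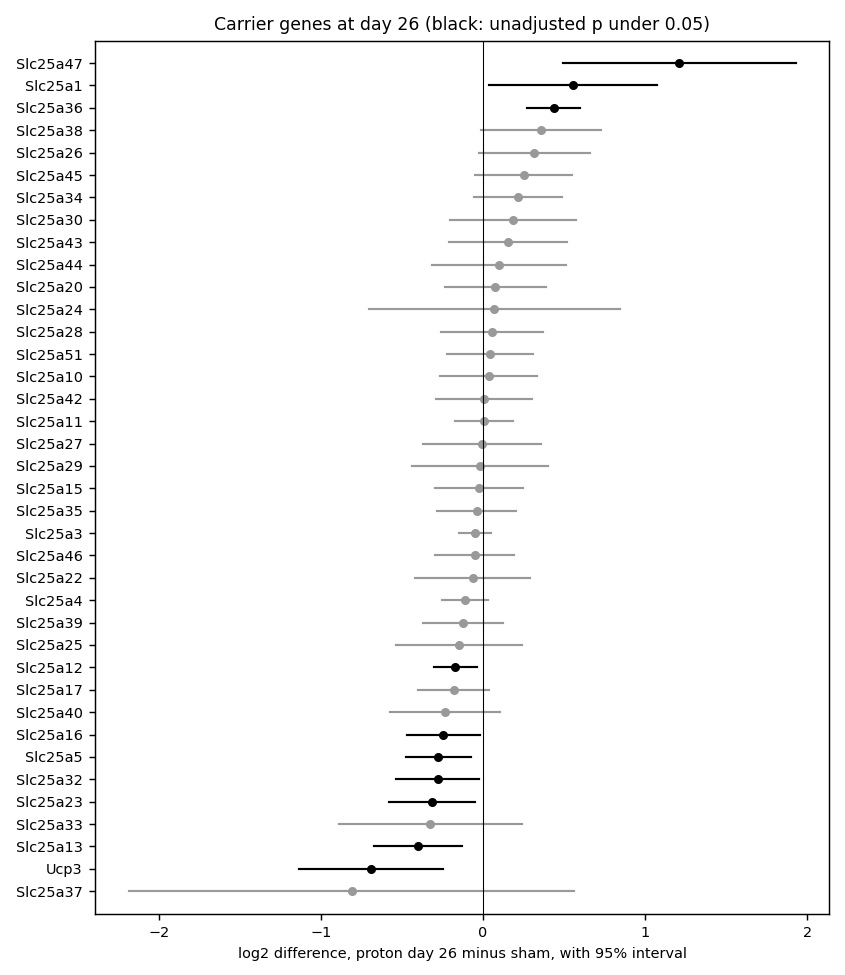
Log2 difference at proton day 26 minus sham (horizontal axis) for each of the 38 tested members (vertical axis), with bars for the 95% interval. Slc25a47 (1.21) and Slc25a37 (-0.81) mark the ends, and the interval of Slc25a36 is 0.27 to 0.60.

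Groups that do not overlap sham were counted for each day. At day 1, 0 members lay wholly above sham (14.2% of all genes) and 8 wholly below (14.9%); at day 3 there was 1 of each (8% and 4.39%). At day 5 there were 4 above (16.8%) and 9 below (15.8%), and at day 12, 3 above (9.92%) and 4 below (11.2%). At day 26, 7 were above (24.7%) and 8 below (14.1%). Across the 14 samples the median range of a member was 0.594 on the log2 scale, against 0.616 for all genes tested. Members lay on 19 chromosomes, and 4 pairs lay within 100 kb of each other. Among them were Slc25a29 and Slc25a47 on chromosome 12, separated by 13956 bases. Their differences were -0.39 and 0.97 at day 5, and -0.02 and 1.21 at day 26.

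Partners of the carriers were read from 5 lists, and no gene of these passed limma's test in any comparison. Of other mitochondrial transport proteins 23 of 27 were tested, among them Mtch1, Mtch2 and Ucp1, which the rule for members left out. Mtch2, an outer membrane insertase, led them at -0.23 ± 0.06 late against early (limma adjusted p = 0.201). Of the machinery that imports carriers into the inner membrane 15 of 16 were tested: 14 of 15 were below sham at day 5, with a median of -0.16, and 15 of 15 in the proton mean, with a median of -0.11, against 46.7% of all genes. Tomm20, an import receptor, was -0.25 ± 0.10 in that mean (adjusted p = 0.378). Of the shuttle enzymes 11 of 12 were tested; Got1, the cytosolic aspartate aminotransferase that works with Slc25a12 and Slc25a13, was -0.18 ± 0.04 late against early (adjusted p = 0.149), and Gpd1 was -0.45 ± 0.13 at day 12 (adjusted p = 0.57).

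Of the genes that pass on energy from the ADP/ATP carrier 11 of 12 were tested, and 10 of 11 were below sham in the proton mean, with a median of -0.08 (9 of 11 with quantile normalization). Ckmt2, the mitochondrial creatine kinase of muscle, was -0.17 ± 0.06 at day 26 (adjusted p = 0.224). Of the regulators of mitochondrial gene expression 14 of 15 were tested. Ppargc1a, a coactivator of mitochondrial biogenesis, was 0.43 ± 0.11 above sham at day 3 (adjusted p = 0.271) and -0.32 ± 0.09 late against early (adjusted p = 0.194). Ppara, which drives fatty acid oxidation genes, was 0.35 ± 0.10 above sham at day 3 (adjusted p = 0.341). Tfam, which packages mitochondrial DNA and helps start its transcription, was -0.42 ± 0.14 at day 26 (adjusted p = 0.225).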

How the data were processed

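RNA of isolated cardiomyocytes was measured on 15 arrays. The authors deposited log2 signals of 34760 probe sets, from 0.123 to 12.9; the submitters' processing notes name MAS5 with no version, and background correction and normalization are not given in the sources used here. The values were used as deposited. Of the probe sets, 21640 carried 1 symbol, 1321 several and 11799 were not listed in the annotation; positions came from RefSeq genes of GRCm38.p6, which matched all 47 members. limma 3.58.1 (R 4.3.3; lmFit and eBayes, variance trend on) was fitted to 14 samples in 6 groups, with 8 residual and 12.1 moderated degrees of freedom, and Benjamini-Hochberg adjustment ran over 12102 genes at a threshold of 0.05. The script was tested on simulated data. Errors after ± are standard errors of the fit.

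The members and lists were chosen with earlier results of these data known. Values in every sample are given for 8 fixed members, for the 3 with the smallest p in each test and for the extremes of each day. Other tested members are given by differences. From each pathway list, up to 2 genes with the smallest p in a comparison are named. The precision is limited by the number of arrays. Pairing by replicate number was looked for over 21 pairs of samples with the same number in different groups. Their deviations from group means had a median correlation of -0.0947, and 9 pairs exceeded 0.1. In groups of 2 samples the deviations mirror each other, so these pairs are not independent and the check cannot exclude pairing. Alternatives in normalization, filter, probe set rule, variance model, controls, covariates and samples left out were run. Figures were drawn with matplotlib 3.10.9.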

Additional observations from a re-analysis of the deposited data

How the results depend on the processing

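Of 27 named differences, 23 kept their direction in the alternatives run. The number of members called at day 26 went from 0 to 1 (Slc25a36) with quantile normalization, a filter at the 75th percentile, a robust prior or 15 separate arrays, to 2 with array weights (Slc25a36, Slc25a47) and to 3 with the score of other cells as a covariate (Slc25a36, Slc25a37, Slc25a47); leaving out 1 sample gave 0 to 1. With that covariate, late against early called 3 (Slc25a13, Slc25a26, Slc25a37) and any day against sham 1 (Slc25a36). The share of all genes called under the same settings is not given here. A rise over all genes and one of the carriers therefore cannot be told apart from these counts. The cause was not tested. The Slc25a36 difference at day 26 ran from 0.32 to 0.47 over its alternatives, and its adjusted p from 0.014 to 0.502. Reversed were Slc25a40 at day 1 with the mean of its probe sets (0.48), Slc25a47 at day 3 against the sham of that day (-0.14), and Slc25a24 at day 12 with the covariate (-0.037). Leaving out 1 sample gave -0.80 to 0.031 for Slc25a37 at day 5 and -0.089 to 0.80 for Slc25a24 at day 12. With the replicate number as a block, without the sham of day 3, the count of members called was 0 in all 9 tests. Slc25a36 at day 26 was then 0.44 (limma adjusted p = 0.22). The pairing check gave no ground for that block but could not exclude pairing. The filter at the 75th percentile left 27 of 38 members, so that 11, among them Slc25a24, Slc25a27 and Slc25a40, had no value there. Groups of 2 or 3 samples and signals near the filter limit what could be called.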
